A study of Mus musculus with 6 samples.

Results

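The genes described here are 10 members of the cytokine receptor and JAK-STAT pathway, taken by symbol from the 14005 genes listed for day 3.5 FLK1+ mesoderm. They are the receptor genes Epor, Il6st and Lifr, the kinase genes Jak1 and Jak2, the transcription factor genes Stat3, Stat5a and Stat5b, and the feedback genes Socs2 and Socs3. RNA was sequenced from FLK1+ cells sorted from embryoid bodies (EBs) at day 3.5, with 3 libraries from J1 wild-type (WT) mouse embryonic stem (ES) cells and 3 from an Scl-/- ES line that lacks SCL (TAL1), each set numbered 1 to 3 after independent differentiations. The strain is labelled C57Bl/6 X Sv129 for WT replicates 1 and 2 and Scl-/- replicate 1, C57Bl/6 X Sv131 for WT replicate 3, and C57Bl/6 X Sv130 and C57Bl/6 X Sv132 for Scl-/- replicates 2 and 3. In the order of the submitted samples the number stayed at 129 for the first 3 libraries and then rose by 1 with each sample. The methods name a single WT line, and whether the numbers stand for different strains is not given in the sources used here. ES cells of both groups were kept with leukaemia inhibitory factor (LIF), the ligand of LIFR, and were then differentiated in a serum medium whose described additions name neither LIF nor erythropoietin (EPO). The methods name 1 ES line for each genotype, so an effect of the genotype and a property of the line cannot be told apart.

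Cytokine receptors of this class have no kinase activity of their own. On ligand binding, the Janus kinases (JAKs) held by the receptor phosphorylate it and then the STAT proteins, which enter the nucleus and drive target genes, among them the SOCS genes whose products damp the signal. EPOR acts mainly through JAK2 and STAT5 and is needed for the survival of red cell precursors, while gp130 (the product of Il6st) and LIFR act mainly through JAK1 and STAT3, the route by which LIF keeps mouse ES cells undifferentiated.

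Levels are given in CPM, a gene's reads scaled to the size of its library. The 6 libraries held 38623641 to 47621120 reads on listed genes, so that 3 reads stood for 0.0615 to 0.0784 CPM. All 10 genes passed the filter on low values, as did 13991 genes in all, and their reads per library ran from 190 for Epor to 11647 for Lifr. Values of single libraries are given in the order of replicates 1 to 3, and libraries that share a number are called a pair. The targeted gene Tal1 had 182 to 306 CPM in WT and 5.68 to 9.35 CPM in Scl-/- libraries, and Kdr, which encodes FLK1, had 832 to 868 and 724 to 810 CPM. Replicate 2 of both groups had the lowest sum of blood and endothelial markers. The 10 blood and endothelial markers summed to 578 CPM in WT replicate 2 against 939 and 1000 CPM in WT replicates 1 and 3, and to 170 CPM in Scl-/- replicate 2 against 311 and 295 CPM. Of the 9 listed markers of undifferentiated ES cells, Tdgf1, Pou5f1 and Nanog were highest in replicate 2 of both groups. Tdgf1, a Nodal co-receptor gene, was at 322 CPM in WT replicate 2 against 75.0 and 120 CPM, and at 632 CPM in Scl-/- replicate 2 against 196 and 447 CPM. Sox2, Zfp42, Esrrb, Fgf4, Klf4 and Tbx3 were not highest in replicate 2 of both groups, so the list does not set replicate 2 apart as a whole. In RNA from a sorted population, fewer cells that express a gene and less RNA per cell cannot be told apart.

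In the absence of SCL, Stat5a, Stat5b, Stat3 and Jak1 fell. Mean levels in Scl-/- cells were 0.299 of WT for Stat5a, 0.336 for Stat5b, 0.624 for Stat3 and 0.713 for Jak1. A gene was called at an adjusted p below 0.05 (limma, Benjamini-Hochberg over the 13991 genes) and an absolute log2 fold change above 0.48, and by this rule 4 of the 10 genes were called, all of them lower in Scl-/- cells, against 2.36% of all genes tested (1.57% lower and 0.793% higher). When replicate number was added to the model as a block (the blocked fit), 5 of the 10 were called lower and 1 higher, against 6.6% and 6.04% of all genes tested (12.6% in both directions). Epor joined the lower ones and Jak2 was the higher one. By adjusted p alone, 4 of the 10 passed unblocked and 7 blocked, against 2.38% and 24.2% of all genes tested. With each chromosome's median taken out of every library, the same 4 passed, against 1.89% of all genes called and 1.37% called lower, and in the blocked fit the same 5 and 1, against 5.9% and 4.76%. Without WT replicate 1 none of the 10 was called in the fit without the block, where only 44 genes were called in all. The other unblocked fits that left out 1 library called between 1 and 3 of the 10, and 128 to 384 of the 13991 genes tested. Blocked fits that left out 1 pair called 5 or 6 of the 10, and 1122 to 2062 of all genes tested. Stat5b was called in every one of these fits, and Stat3 and Stat5a in every blocked one. Without the pair of replicate 2, the blocked fit called 6 of the 10, against 8.02% of all genes tested, with Il6st in place of Jak1. The libraries of the groups did not overlap for 6 of the 10 genes, 4 lower and 2 higher in Scl-/- cells, against 21.6% of all genes tested. In all 3 pairs 5 of the genes were lower and 2 higher, against 26.4% and 29.8% of all genes tested. The median log2 fold change was -0.15 over the 10 genes and 0.009 over all genes.

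**Figure D1:**
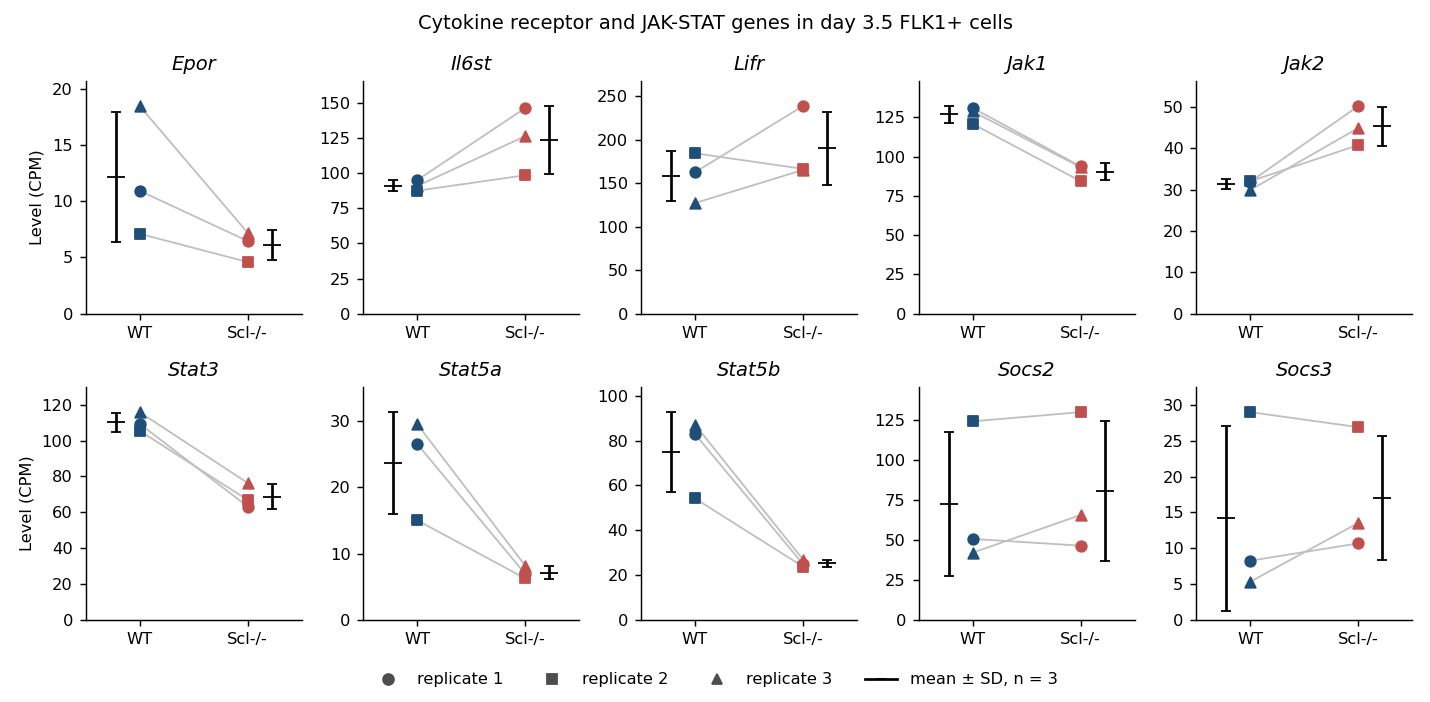
Level of each of the 10 genes (y axis, CPM, from 0) in the 3 WT and 3 Scl-/- libraries (x axis), with grey lines joining libraries of the same replicate number and black marks giving the mean ± SD (n = 3). Stat5a, Stat5b, Stat3 and Jak1 have all 3 Scl-/- points below all 3 WT points, whereas for Socs2 and Socs3 the replicate 2 squares lie far above the other points in both groups.

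Among the receptors, Epor, the receptor of EPO, lies on chromosome 9 from 21763343 to 21768020 of mm9 on the minus strand (Ensembl ENSMUSG00000006235). It stood at 10.9, 7.11 and 18.5 CPM in the WT libraries against 6.46, 4.59 and 7.19 CPM in the Scl-/- ones. Each Scl-/- library was below the WT library of the same number, but Scl-/- replicate 3 lay just above WT replicate 2, so the groups overlapped. The means were 12.2 ± 5.79 and 6.08 ± 1.34 CPM (SD, n = 3 each). Its log2 fold change was -0.87 (standard error 0.34, limma's adjusted p = 0.234), and with the replicate block the gene was called (standard error 0.16, limma's adjusted p = 0.00678). The differences within pairs were -0.72, -0.58 and -1.30 on the log2 scale. The log2 fold change was -1.18 without WT replicate 2 and -0.53 without WT replicate 3, and the blocked fit called the gene without each pair. WT replicate 2, the WT library with the lowest Epor level, was also the one with the lowest sum of primitive erythroid markers (15.1 CPM against 28.5 and 29.4 CPM in WT replicates 1 and 3), of which 4 of 10 were listed, and the part of this in the Epor result was not tested. The Scl-/- libraries had 9.22, 9.55 and 6.01 CPM for the same 4 markers. There the order differed, since replicate 2 had the lowest Epor level and the highest marker sum. Alas2 alone held 12.3, 8.65 and 10.3 CPM of the WT sums and 6.44, 8.05 and 5.10 CPM of the Scl-/- ones. The defining erythroid genes Klf1 and Slc4a1 were not among the listed genes.

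The start region of Epor is shown because it holds both kinds of motif that SCL complexes are known to bind, E-boxes and GATA sites, as did 1 other window of these genes, the second of Lifr. The sequence is from RefSeq (GRCm38.p6, chr9:21963527-21963826, minus strand) and covers 250 bases before the start site and 50 after it, in which capitals mark E-boxes, written CANNTG, and GATA motifs, written AGATAA or TGATAA or AGATAG or TGATAG, on either strand.
Epor: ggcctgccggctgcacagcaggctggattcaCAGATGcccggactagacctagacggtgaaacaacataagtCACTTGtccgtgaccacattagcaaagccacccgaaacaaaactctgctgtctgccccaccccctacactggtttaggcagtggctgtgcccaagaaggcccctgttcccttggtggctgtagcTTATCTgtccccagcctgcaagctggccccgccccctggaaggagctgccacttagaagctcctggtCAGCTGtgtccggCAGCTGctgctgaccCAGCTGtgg
It held 5 E-boxes and 1 GATA match, the latter 54 bases before the start site. Of 32851 such windows, 72.3% held at least 1 E-box and 29.8% at least 1 GATA match, and no match of one kind overlapped one of the other. A match describes the letters and is not evidence of binding.

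Il6st, on chromosome 13 from 113265216 to 113297068 of mm9, encodes gp130, the shared signalling subunit of the receptors for IL-6, LIF and related cytokines. It stood at 95.0, 87.5 and 90.9 CPM in the WT libraries against 146, 98.5 and 126 CPM in the Scl-/- ones. All Scl-/- libraries were above all WT libraries, although Scl-/- replicate 2 was only slightly above WT replicate 1. Its change of 0.42 on the log2 scale (standard error 0.15, limma's adjusted p = 0.199 unblocked and 0.0122 blocked) was under the fold threshold in both fits. Without the pair of replicate 2 it was 0.55, and the gene was called with the block (limma's adjusted p = 0.0147). Lifr, on chromosome 15 from 7079559 to 7147489, encodes the subunit that pairs with gp130 to bind LIF. It stood at 162, 184 and 127 CPM in the WT libraries against 239, 166 and 165 CPM in the Scl-/- ones, and the groups overlapped, with replicate 2 going the other way from replicates 1 and 3. Its log2 fold change was 0.26 (standard error 0.19, limma's adjusted p = 0.562 unblocked and 0.156 blocked). It ran from 0.087 without Scl-/- replicate 1 to 0.47 in the blocked fit without the pair of replicate 2 (limma's adjusted p = 0.0234), still under the fold threshold, and was 0.11 without WT replicate 3.

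The 2 kinases differed in opposite directions. Jak1, on chromosome 4 from 100824972 to 100937887, stood at 131, 121 and 129 CPM in the WT libraries against 93.8, 84.3 and 93.3 CPM in the Scl-/- ones. The groups were well apart, with the highest Scl-/- library below the lowest WT library (means 127 ± 5.36 and 90.5 ± 5.31 CPM, SD, n = 3 each), and the log2 fold change was -0.49 (standard error 0.09, limma's adjusted p = 0.0421 unblocked and 0.0012 blocked). This value is just past the fold threshold. The call was lost in each fit without the block that left out 1 library, at log2 fold changes from -0.52 to -0.44, in the fit without an intensity trend (limma's adjusted p = 0.0734), and in the blocked fit without the pair of replicate 2, where the value of -0.47 missed the fold threshold. Jak2, on chromosome 19 from 29326318 to 29387570, stood at 31.9, 32.0 and 29.9 CPM in the WT libraries against 50.3, 40.8 and 45.0 CPM in the Scl-/- ones. All Scl-/- libraries lay above all WT libraries (means 31.3 ± 1.19 and 45.4 ± 4.74 CPM, SD, n = 3 each). Its log2 fold change was 0.52 (standard error 0.11, limma's adjusted p = 0.0686), and it was called with the replicate block only (standard error 0.09, limma's adjusted p = 0.00446). That call was lost without the pair of replicate 1, where the value of 0.46 missed the fold threshold.

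Within each library, the log2 ratio of Jak2 to Jak1 does not depend on how that library was scaled. The WT libraries gave -2.04, -1.92 and -2.11, whereas -0.90, -1.05 and -1.05 came from the Scl-/- ones, a difference between means of 1.02, and the groups did not overlap. In CPM, Jak2 was at 0.232 to 0.265 of Jak1 in the WT and 0.482 to 0.536 of Jak1 in the Scl-/- libraries.

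**Figure D2:**
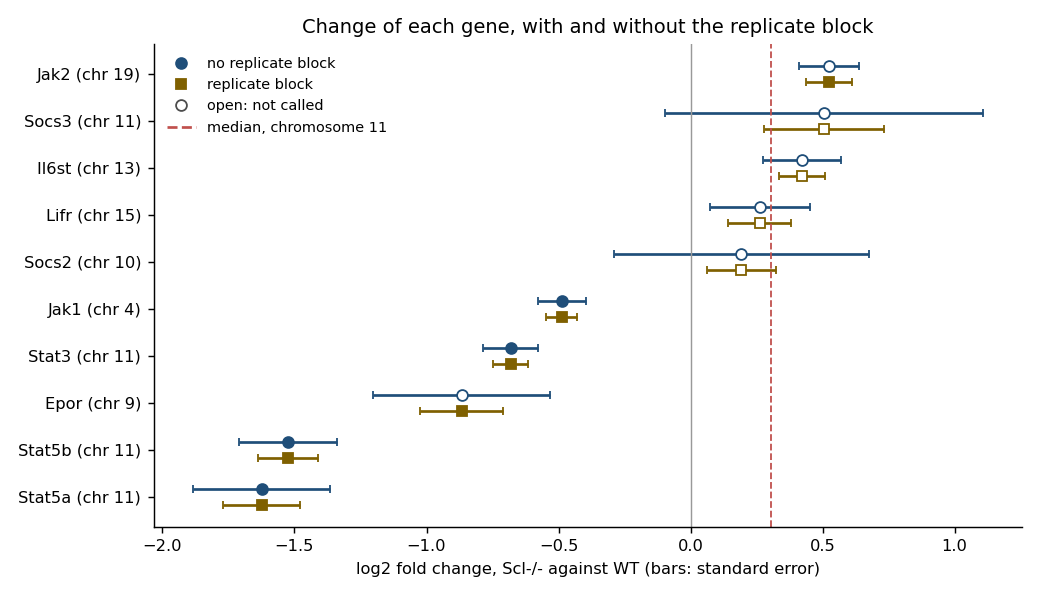
Log2 fold change of each gene in Scl-/- against WT cells (x axis) with its standard error, without the replicate block (circles) and with it (squares), with filled symbols for called genes. The block narrows the error of Socs2 and Socs3 most, from 0.48 to 0.13 and from 0.60 to 0.23, and the dashed line gives the chromosome 11 median of 0.31.

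Stat5b, Stat5a and Stat3 lie side by side on chromosome 11, with no other listed gene between them. Stat5b spans 100642045 to 100712038 of mm9 on the minus strand, Stat5a 100720665 to 100746483 on the plus strand and Stat3 100746412 to 100800854 on the minus strand. Stat5a and Stat5b encode near-identical factors that transmit signals of EPO and other haematopoietic cytokines, and STAT3 is the main factor activated through gp130. Stat5a and Stat3 share 72 bases at their 3' ends, and how reads there, or reads common to Stat5a and Stat5b, were assigned is not given in the sources used here.

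Stat5a stood at 26.5, 15.03 and 29.5 CPM in the WT libraries against 6.89, 6.24 and 8.14 CPM in the Scl-/- ones. The lowest WT library, replicate 2, was still well above the highest Scl-/- library, and the means were 23.7 ± 7.66 and 7.09 ± 0.968 CPM (SD, n = 3 each). The log2 fold change was -1.62 (standard error 0.26, limma's adjusted p = 0.0244 unblocked and 0.000288 blocked). Stat5b was higher in CPM and stood at 83.0, 54.3 and 87.2 CPM in the WT libraries against 24.9, 23.7 and 26.9 CPM in the Scl-/- ones. Again WT replicate 2 was the lowest of its group without reaching the Scl-/- range, which was narrow (74.8 ± 17.9 against 25.2 ± 1.60 CPM, SD, n = 3 each). Its log2 fold change was -1.52 (standard error 0.19, limma's adjusted p = 0.01 unblocked and 0.000132 blocked). Without WT replicate 1 limma's adjusted p rose to 0.142 for Stat5a and 0.073 for Stat5b unblocked, at log2 fold changes of -1.52 and -1.43. Stat5a kept its unblocked call only without WT replicate 2, with limma's adjusted p between 0.056 and 0.142 without any other library, whereas Stat5b lost it only without WT replicate 1.

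Stat3 stood at 109, 105 and 116 CPM in the WT libraries against 63.1, 66.8 and 76.3 CPM in the Scl-/- ones. Its groups were apart and its spread among the WT libraries was small (110.2 ± 5.25 against 68.8 ± 6.79 CPM, SD, n = 3 each). Its change of -0.68 on the log2 scale (standard error 0.10, limma's adjusted p = 0.0223 unblocked and 0.000456 blocked) was smaller than those of Stat5a and Stat5b. Unblocked, it was not called without WT replicate 1, WT replicate 3 or Scl-/- replicate 2 (limma's adjusted p = 0.135, 0.0712 and 0.0947). The log2 ratio of Stat5a to Stat3 within a library was -2.28 ± 0.465 (SD, n = 3) in WT and -3.28 ± 0.121 (SD, n = 3) in Scl-/- cells, a difference of -1.01, and that of Stat5b to Stat3 was -0.59 ± 0.321 and -1.45 ± 0.089 (SD, n = 3 each), a difference of -0.86. Neither ratio overlapped between groups. The log2 ratio of Stat5a to Stat5b, -1.69 ± 0.149 and -1.83 ± 0.103 (SD, n = 3 each), did overlap. In CPM, which is not scaled to gene length, Stat5a stood at 0.263 to 0.339 of Stat5b in all 6 libraries.

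Chromosome 11 as a whole was higher in Scl-/- cells, which makes the fall of these 3 genes larger against their surroundings than against the genome. Over its 1211 tested genes the median log2 fold change was 0.31. Of them 1.49% were called lower without the block and 4.71% with it, and 3.88% had a log2 fold change at or below that of Stat3 and 1.65% at or below that of Stat5b. Once the chromosome medians were taken out, the log2 fold changes were -1.93 for Stat5a, -1.83 for Stat5b and -0.99 for Stat3 (limma's adjusted p = 0.0142, 0.00765 and 0.00371). Of the 10 tested genes nearest to the Stat genes, 5 on each side, 7 were higher and 3 lower in Scl-/- cells, and their median was 0.19 (log2). Only the gene next to Stat3 was called without the replicate block. This was Ptrf (Cavin1), a coat protein gene of caveolae, which stood at 27.1, 18.9 and 32.1 CPM in the WT libraries against 10.9, 6.00 and 6.15 CPM in the Scl-/- ones, a change of -1.72 on the log2 scale (standard error 0.28, limma's adjusted p = 0.026 unblocked and 0.000628 blocked). On the other side, Ghdc, the nearest neighbour of Stat5b, stood at 15.2, 13.2 and 14.3 CPM in the WT libraries against 18.5, 19.4 and 18.2 CPM in the Scl-/- ones, a change of 0.39 on the log2 scale (standard error 0.12, limma's adjusted p = 0.159 unblocked and 0.0267 blocked). Among the 54 other tested genes that start within 1000 kb of Stat5a, 41 were higher and 13 lower. In the blocked fit 7 of these were called lower and 8 higher, against 57 and 253 of the 1211 genes of the chromosome. The lowest of the 54 was Wnk4, an ion transport kinase gene 401 kb from Stat5a, at a log2 fold change of -4.21, named after its value had been seen.

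**Figure D3:**
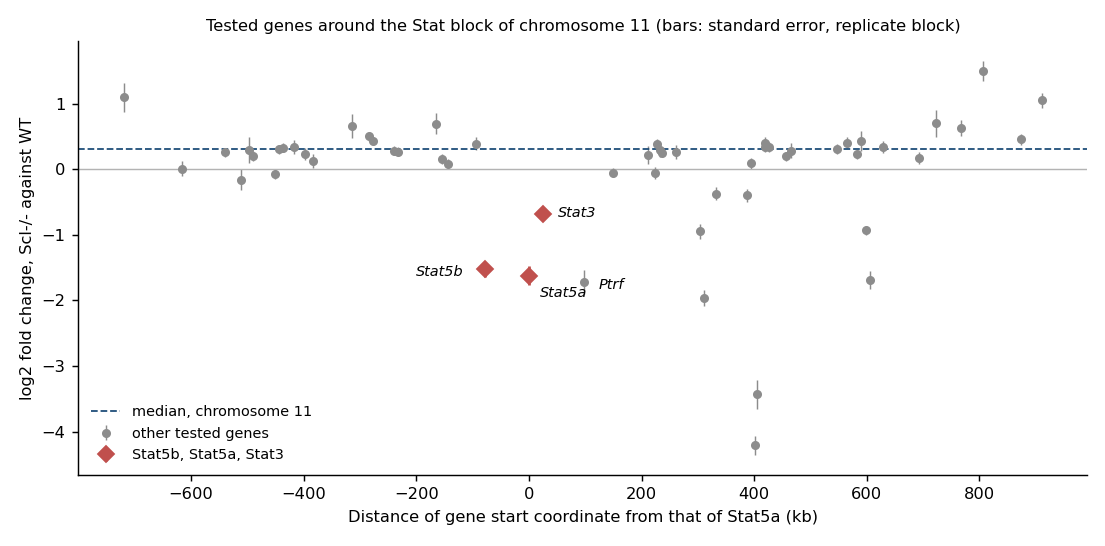
Log2 fold change (y axis, bars: standard error with the replicate block) of tested genes against the distance of their start coordinate from that of Stat5a (x axis, kb), with the chromosome 11 median of 0.31 as a dashed line. Stat5b, Stat5a, Stat3 and Ptrf lie between -1.72 and -0.68, while most other genes lie close to the dashed line and the lowest point is Wnk4 at -4.21.

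The start regions of Stat5a and Stat5b are shown because the levels of the 2 genes moved together, with a Pearson correlation of 0.996 over the 6 libraries, which share the difference between groups. The starts of the genes annotated in mm9 are 8627 bases apart and point away from each other, but the windows printed are not those 2 starts. RefSeq (GRCm38.p6) lists 2 start windows for each gene, and those printed, chr11:100860234-100860533 on the plus strand for Stat5a and chr11:100822521-100822820 on the minus strand for Stat5b, were chosen after the sequences had been seen, with capitals for E-boxes. The Stat5b start printed lies 28011 bases downstream of the other Stat5b start, within the gene, and the Stat5a start 828 bases downstream of its other start, so the printed starts are 37914 bases apart.
Stat5a: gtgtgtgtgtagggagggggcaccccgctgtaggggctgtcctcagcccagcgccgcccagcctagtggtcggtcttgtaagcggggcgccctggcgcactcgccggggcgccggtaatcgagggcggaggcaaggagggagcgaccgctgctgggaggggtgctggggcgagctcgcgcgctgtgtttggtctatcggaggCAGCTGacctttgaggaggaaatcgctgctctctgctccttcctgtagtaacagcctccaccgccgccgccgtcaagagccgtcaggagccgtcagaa
Stat5b: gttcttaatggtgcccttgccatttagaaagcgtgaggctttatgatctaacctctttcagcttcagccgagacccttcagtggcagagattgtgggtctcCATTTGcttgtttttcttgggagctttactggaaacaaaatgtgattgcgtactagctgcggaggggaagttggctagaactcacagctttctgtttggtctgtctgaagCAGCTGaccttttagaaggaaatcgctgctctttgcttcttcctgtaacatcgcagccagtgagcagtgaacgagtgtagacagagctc
Each held the E-box CAGCTG shortly before the start site, 48 bases before it in Stat5a and 39 in Stat5b. Aligned without gaps from 4 bases before that E-box, 48 of 60 bases were identical, with a shared run of 16 bases. The stretch was placed at the shared E-box and no other pair of windows was aligned, so this identity has no background beside it. The Stat5b window held a further E-box, CATTTG, 149 bases before the start site, and neither held a GATA match. The other Stat5a window held 2 E-boxes, and the other Stat5b window held neither motif. The Stat3 window held 1 E-box, 16 bases before the start site.

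Genes of at least 1 CPM on average were ranked by likeness, and those whose log2 levels over the 6 libraries were most like Stat5a were Ctla2b, Mknk1, Itm2a, Gypc and Dtx1, with Pearson correlations of 0.997 to 0.999. For Stat5b they were Prokr1, Ctla2b, Ushbp1, Itga2b and Ets2, with correlations of 0.998 to 0.999. Itga2b encodes CD41, an early blood marker, and was 22.6 CPM on average in WT and 2.53 CPM in Scl-/- cells. For Epor the most alike genes, at 0.992 to 0.996, were Gm14493, C330006A16Rik, Ccdc115, Nap1l4 and Ubl4, whose log2 fold changes of -0.64 to -0.13 were smaller than that of Epor. These correlations are descriptions over 6 libraries that share 2 groups and 3 differentiations. The 10 blood and endothelial markers, whose summed level was 578 to 1000 CPM in WT and 170 to 311 CPM in Scl-/- libraries, centred on a median of -2.60 (log2), and the unblocked fit called 8 of them lower and the blocked fit all 10. Their part in the fall of the Stat genes was not tested.

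Socs2 and Socs3 differed between differentiations far more than between genotypes. SOCS2 restrains growth hormone and STAT5 signalling, and SOCS3 binds gp130 and blocks the STAT3 route. Socs2, on chromosome 10 from 94847996 to 94879814, stood at 50.6, 124 and 42.0 CPM in the WT libraries against 46.4, 130 and 65.6 CPM in the Scl-/- ones. Replicate 2 was far above the other libraries in both groups, and the groups overlapped fully. The log2 fold change was 0.19 (standard error 0.48, limma's adjusted p = 0.918 unblocked and 0.333 blocked), and its sign turned when WT replicate 3 (-0.11) or Scl-/- replicate 2 (-0.22) was left out. Socs3, on chromosome 11 from 117827393 to 117831361, stood at 8.25, 29.0 and 5.32 CPM in the WT libraries against 10.7, 26.9 and 13.5 CPM in the Scl-/- ones. Replicate 2 was again the highest in both groups, and only replicates 1 and 3 were higher in Scl-/- cells. Its change of 0.51 on the log2 scale (standard error 0.60, limma's adjusted p = 0.77 unblocked and 0.146 blocked) fell to 0.20 with the chromosome medians removed. The value rested on single libraries, at 1.19 without WT replicate 2, 0.78 without Scl-/- replicate 1, 0.31 without WT replicate 1, 0.13 without Scl-/- replicate 2 and 0.017 without WT replicate 3, and was not called in any of these fits.

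Of the sum of squares of log2(CPM + 0.5) over the 6 libraries, the replicate number took 91.7% for Socs2 and 79.4% for Socs3, against 5.20% to 10.01% for Jak1, Jak2, Stat3, Stat5a and Stat5b. For 12.7% of all tested genes the replicate number took over 90%. The genotype took 94.1% for Jak1, 93.5% for Stat3, 92.2% for Stat5b, 89.2% for Jak2 and 87.1% for Stat5a, and 2.77% of all tested genes had more than 90% from the genotype. Il6st and Epor were mixed, with 60.7% and 51.4% from the genotype and 27.2% and 41.8% from the replicate number. Lifr had 30.7% that neither accounted for.

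**Figure D4:**
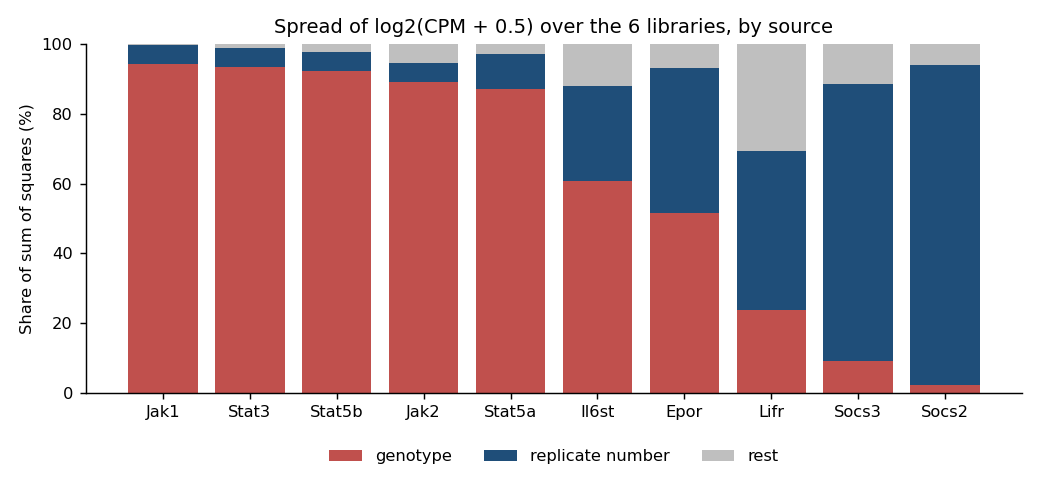
Share of the sum of squares of log2(CPM + 0.5) over the 6 libraries (y axis, %) held by genotype, by replicate number and by the rest, for each of the 10 genes. The 2 SOCS genes stand at the right with shares of 79.4% and 91.7% for the replicate number, and the 5 genes at the left have 87.1% to 94.1% from the genotype.

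The start window of Socs3 is shown because the STAT motif TTCNNNGAA, in capitals and a palindrome apart from its middle bases, was present in it and in none of the other windows of these genes (RefSeq, GRCm38.p6, chr11:117969317-117969616, minus strand).
Socs3: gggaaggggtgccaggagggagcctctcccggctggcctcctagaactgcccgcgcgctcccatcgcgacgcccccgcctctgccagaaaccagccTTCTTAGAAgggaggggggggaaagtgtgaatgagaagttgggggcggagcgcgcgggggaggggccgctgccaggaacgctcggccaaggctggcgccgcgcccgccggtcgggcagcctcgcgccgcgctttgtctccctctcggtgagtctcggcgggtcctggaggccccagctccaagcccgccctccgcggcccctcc
The single match lay 154 bases before the start site, and 8.3% of all windows held such a match. Socs2 had no window in the table, and the other 9 genes had at least 1.

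Per kb of merged exons, the highest WT levels among the 10 genes were those of Jak1 (17.6 CPM per kb), Il6st (17.5), Lifr (15.3) and Stat5b (13.5), followed by Stat3 (11.6), Socs2 (7.58), Epor (6.66), Jak2 (6.22), Socs3 (4.91) and Stat5a (3.32). No gene in this order was separated from the next, since the WT libraries of each such pair overlapped. In Scl-/- cells the order was Il6st (23.8 CPM per kb), Lifr (18.4), Jak1 (12.5), Jak2 (9.02), Socs2 (8.46), Stat3 (7.22), Socs3 (5.89), Stat5b (4.54), Epor (3.32) and Stat5a (0.994). By mean level, Stat5b thus went from the fourth to the eighth place and Jak2 from the eighth to the fourth. These Scl-/- places were not separated from their neighbours either. The Scl-/- libraries of Socs2 overlapped those of Jak2, and those of Socs3 overlapped those of Stat5b. The share of Stat5a and Stat5b in the summed level per kb of the 3 Stat genes was 62.0%, 51.8% and 62.1% in WT and 45.1%, 42.4% and 42.8% in Scl-/- replicates 1 to 3.

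The wider pathway was counted on a list of 100 further receptor, ligand, JAK, STAT, SOCS, inhibitor, adaptor and target genes, of which 70 were tested. Without the block 2 were called, both lower (2.86% against 2.36% of all genes tested), and with the block 10 were called lower and 7 higher (24.3% against 12.6%). The counts of the pathway depended strongly on the block, and without the pair of replicate 2 the fit with the block called 9 of the 70, against 8.02% of all genes tested. The genes called without the block were the adaptor genes Irs2 and Gab2. Irs2, which links insulin and some cytokine receptors to PI3 kinase, stood at 170, 167 and 161 CPM in the WT libraries against 52.4, 59.2 and 55.8 CPM in the Scl-/- ones. Its groups were far apart with little spread, at a change of -1.56 on the log2 scale (standard error 0.09, limma's adjusted p = 0.000671). Gab2, a docking protein gene, stood at 15.2, 9.36 and 10.6 CPM in the WT libraries against 5.43, 2.30 and 2.88 CPM in the Scl-/- ones, a change of -1.65 on the log2 scale (standard error 0.31, limma's adjusted p = 0.044). Irs2 shares 609 bases with the noncoding gene 9530052E02Rik and Gab2 1866 bases with Gm2783, both on the opposite strand, and whether reads were counted by strand is not given in the sources used here.

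Outside the block on chromosome 11, the STAT genes Stat2, Stat4 and Stat6 were not called, with log2 fold changes of 0.16, 0.10 and 0.14. Of the other 2 kinase genes, Jak3 was called lower with the block only (-0.61, limma's adjusted p = 0.331 unblocked and 0.015 blocked), and Tyk2 was not called (0.08). None of the 8 SOCS family genes and none of the 10 tested inhibitor genes was called in either fit. Over all genes tested, 2.36% were called without the block and 12.6% with it. At these shares the absence of calls among so few genes sets neither family apart. Cish, a feedback target of STAT5, stood at 2.68, 2.61 and 4.37 CPM in the WT libraries against 2.66, 1.91 and 2.65 CPM in the Scl-/- ones, at a log2 fold change of -0.34 (limma's adjusted p = 0.554 unblocked and 0.195 blocked).

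Among the 19 other receptor genes tested, 5 were called lower and 4 higher with the block, against 6.6% and 6.04% of all genes tested, and none without it. The lower ones were Ifngr2 (log2 fold change -1.39), the signalling subunit of the interferon gamma receptor, Il4ra (-0.90), Il10rb (-0.90), Csf2ra (-0.60) and Cntfr (-0.56). Among the higher ones were Il15ra (0.66), Il13ra1 (0.53) and Il12rb2 (0.51). The adjusted p of those named ran, with the block, from 0.000745 for Ifngr2 to 0.0469 for Cntfr (limma). Of the 13 tested STAT target genes, Ccnd2 (-0.53) was called lower and Pim2 (1.49), Bcl6 (0.94) and Irf1 (0.76) higher, again with the block only. The shares called with the block over all genes tested were 6.6% lower and 6.04% higher. Pim2, a survival kinase gene, stood at 10.2, 23.2 and 13.4 CPM in the WT libraries against 16.8, 71.0 and 63.0 CPM in the Scl-/- ones, so the groups overlapped although each pair differed the same way. Irf1 lies on chromosome 11, and its value was 0.45 with the chromosome medians removed. None of the 5 tested ligand genes was called in either fit, against 2.36% of all genes tested without the block and 12.6% with it. Epo, named after its values had been seen, was listed at 240 to 299 CPM in WT and 235 to 292 CPM in Scl-/- libraries, but the annotated gene overlaps Gnb2 by 5116 bases and Gigyf1 by 9055, so this value cannot be read as the level of the hormone's mRNA. Lif had 0.889 to 1.85 CPM in WT and 1.60 to 2.89 CPM in Scl-/- libraries. Csf3r, Il6ra and Osmr were not among the listed genes.

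**Figure D5:**
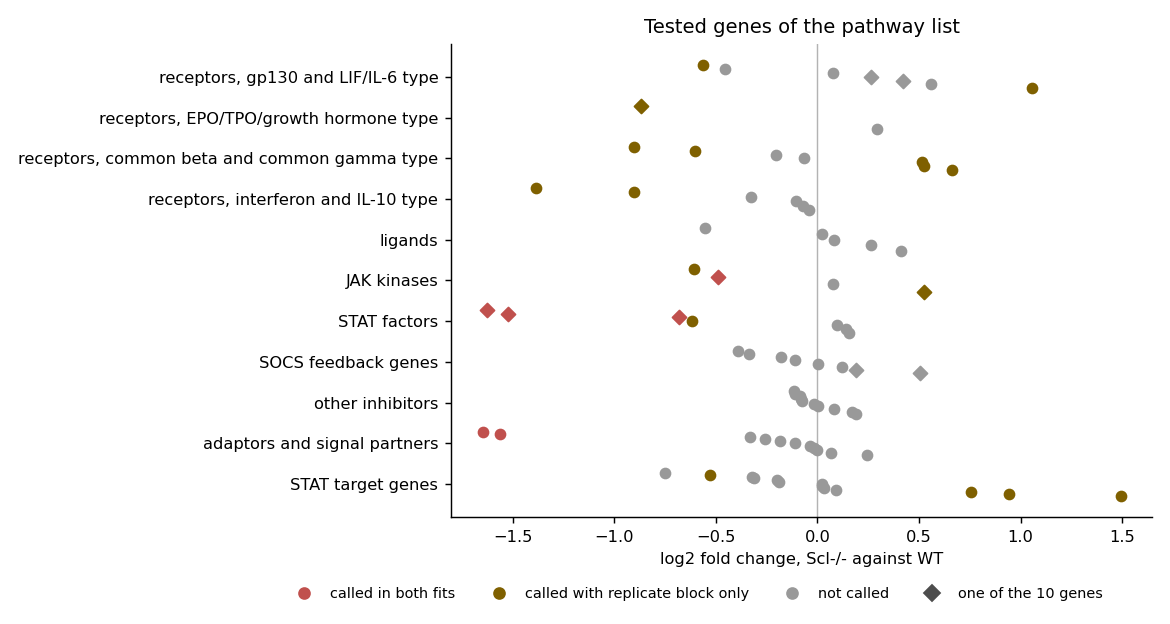
Log2 fold change in Scl-/- against WT cells (x axis) of the 80 tested genes of the pathway, one row for each group, with diamonds for the 10 genes described one by one. Red symbols, which passed without and with the replicate block, are 4 of the 10 genes and the adaptors Irs2 and Gab2, all left of 0, and brown symbols, called with the block only, lie on both sides.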

How the data were processed

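RNA of day 3.5 FLK1+ EB cells was sequenced in 3 WT and 3 Scl-/- libraries. The authors aligned reads to mm9 with TopHat 2.0.8b, removed duplicate read pairs, filtered by mapping quality with SAMtools 0.1.19 and deposited CPM values scaled by the TMM method of edgeR. The counting tool, its annotation and strand setting are not given in the sources used here. Duplicate removal caps the levels that strongly expressed genes can reach. The values of a library moved in equal steps of 1 read (100% within 0.05 of a whole read), from which the reads on listed genes were taken. A floor of 3 reads stood for 0.0615 to 0.0784 CPM, counting error only. The values were kept as CPM, and no count test was run.

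A gene was tested if 3 or more libraries reached 0.5 CPM, on log2(CPM + 0.5), which understates the change of low genes, with limma 3.58.1 (lmFit, eBayes with trend) in R 4.3.3, with genotype as the only term. P-values were adjusted by Benjamini-Hochberg over all genes tested. The fit with the replicate number as a block stands beside it, since the study describes 3 independent differentiations and same-numbered libraries deviated together from their group means (correlations 0.59, 0.76 and 0.75, against -0.62 to -0.10 for other pairs). Whether the libraries of a group are separate cultures rests on that description. No 2 libraries of a group agreed within sampling noise (chi-square of 35.4 or more per degree of freedom). The test was tried on simulated reads.

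Positions and exon lengths came from the GENCODE annotation of mm9, and start windows from RefSeq (GRCm38.p6), whose coordinates were not mixed with mm9. Tables and figures were made with Python 3.11.15, pandas 2.3.3, NumPy 2.4.6 and Matplotlib 3.10.9. The 10 genes, the lists and the tests were chosen with earlier results of these data known. Named besides the 10 genes are pathway genes called in either fit (some are not reported here), the 5 tested genes on each side of the Stat genes and the 5 genes most alike to Epor, Stat5a and Stat5b. Other pathway genes printed, and which neighbours are printed, were chosen after their values were seen. Alternatives were other pseudocounts (0.1 and 1), no filter or a mean of at least 2 CPM, median-ratio rescaling, removal of chromosome medians, no intensity trend, no fold threshold, the replicate block, and each library or pair left out.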

Additional observations from a re-analysis of the deposited data

How the results depend on the processing

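All 10 genes except Socs2 kept the sign of their log2 fold change under every alternative. Socs2 was between -0.22 and 0.67 when libraries or pairs were left out, with negative values without WT replicate 3 (-0.11), without Scl-/- replicate 2 (-0.22) and, with the replicate block, without the pair of replicate 3 (-0.030). The number of the 10 genes called was 4, and ranged from 0 to 6 when libraries or pairs were left out, lowest without WT replicate 1. It was 2 without Scl-/- replicate 1 or 3 and 1 without WT replicate 3 or Scl-/- replicate 2. With the replicate block it was 6, and 7 with the block and no fold threshold, where Il6st was added. The calls the block changed among the 10 genes were those of Epor and Jak2. The number of the 70 other pathway genes called was 2, against 2.36% of all genes tested, and became 17 with the replicate block, against 12.6%. It was 14 with the block and chromosome medians removed, against 10.7%, and 21 with the block and no fold threshold, against 24.2%. It was 1 to 19 when libraries or pairs were left out, with 9 in the blocked fit without the pair of replicate 2, against 8.02%. The 19 came from the blocked fit without the pair of replicate 1, which called 2062 genes in all. Over all genes, calls numbered 330 unblocked and 1768 blocked, and 265 with the chromosome medians removed. They ranged from 44 to 384 in unblocked fits without 1 library and from 1122 to 2062 in blocked fits without 1 pair. The chromosome 11 median stayed between 0.26 and 0.40, and the difference of the Stat5a to Stat3 ratio between -1.27 and -0.86, under alternatives added after the data had been seen. Without replicates of the ES lines, and with 3 libraries a group, an effect under the fold threshold, as for Il6st and Lifr, could not be settled. The causes of these changes were not tested.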
